A study of Mus musculus with 12 samples.

Results

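The 86 regions described here were taken from the authors' list of regions hypomethylated in Dnmt1 mutant bone marrow progenitors. They were selected on measured values, since a region entered the list by its mutant and wild-type levels. They are the listed regions that the list assigns to a gene whose symbol begins with Cd and a digit, at a distance of at most 5 kb. They lay at 36 genes on 15 chromosomes, among 35439 listed regions and 107115 candidate regions in all. Counts of regions per gene are of regions so assigned, unless a wider count is named. The symbols follow the cluster of differentiation (CD) nomenclature, which numbers molecules recognised on leukocytes by groups of antibodies. The label was checked against what these genes are known to encode. All but 2 (Cd2bp2 and Cd3eap) encode receptors, ligands, adhesion molecules or other membrane-associated glycoproteins, whereas those 2 encode intracellular proteins named after a CD antigen that they bind or neighbour.

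Whole-genome methylation sequencing compared cells of BALB/c mice in 2 groups, wild type and Dnmt1 mutant. The cells were progenitors of the bone marrow negative for lineage markers (lin-). The labels write the mutant as dnmt1-/-, whereas the text on the design describes 1 mutation, made in mice after structural work on missense mutants of fish Dnmt1. No Cre, transgene or treatment is named, and the sources used here give neither age nor the number of animals. Each group had 6 libraries, from 3 replicate numbers and 2 kits. The deposited levels hold 3 columns per group, so each value below rests on n = 3 against 3. Nothing in the labels says that the replicates were separate animals, so their spread may be technical. No expression values were used here, so the identity of the cells was not checked against markers. A change in the share of a cell type cannot be told apart from a change of methylation within cells.

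DNA methylation in mammals sits mainly on cytosines followed by guanine (CpG). Dnmt1 copies the pattern of the parental strand onto the daughter strand after replication, so a weakened enzyme lets methylation dilute as cells divide. In blood formation, CD antigens appear and disappear as cells commit to lineages, and many of their genes lose methylation at regulatory sequences in the lineage that uses them. The T cell coreceptors Cd4 and Cd8a and the B cell coreceptor Cd22 are textbook examples of genes that are silent in stem cells and active in a mature lineage.

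Few of the regions lay over a transcript start, and promoter sequence is shown for 3 of those and for 2 genes of contrasting CpG content. RefSeq windows (GRCm38.p6, from 250 bases before to 50 after a transcript start) were matched for 25 of the 36 genes. Cd2, Cd4, Cd6, Cd24a, Cd40, Cd52, Cd74, Cd83, Cd248, Cd300lg and Cd300lh were not matched. Among the regions of these 25 genes, 3 lay over a RefSeq start, at Cd55b, Cd5 and 1 of the 4 starts of Cd82. At Cd6, which was not matched, region 4 (chr19:10829652-10830485) covered position 10830062, where the RefSeq span of this minus-strand gene begins. The 250 bases before the 3 matched starts are printed 5′ to 3′ on the gene's strand, with CpGs inside the listed region in capitals. They are chr1:130423044-130423293 for Cd55b, chr19:10738975-10739224 for Cd5 and chr2:93452673-93452922 for Cd82, all on the minus strand.
Cd55b: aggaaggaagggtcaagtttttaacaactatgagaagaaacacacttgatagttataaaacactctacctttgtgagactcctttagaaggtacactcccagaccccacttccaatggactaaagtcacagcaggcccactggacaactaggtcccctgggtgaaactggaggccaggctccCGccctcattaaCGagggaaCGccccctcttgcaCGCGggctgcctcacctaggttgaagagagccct
Cd5: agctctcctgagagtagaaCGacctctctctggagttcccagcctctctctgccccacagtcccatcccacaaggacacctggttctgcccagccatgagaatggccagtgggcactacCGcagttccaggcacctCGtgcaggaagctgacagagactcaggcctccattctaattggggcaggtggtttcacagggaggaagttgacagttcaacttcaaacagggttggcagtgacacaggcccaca
Cd82: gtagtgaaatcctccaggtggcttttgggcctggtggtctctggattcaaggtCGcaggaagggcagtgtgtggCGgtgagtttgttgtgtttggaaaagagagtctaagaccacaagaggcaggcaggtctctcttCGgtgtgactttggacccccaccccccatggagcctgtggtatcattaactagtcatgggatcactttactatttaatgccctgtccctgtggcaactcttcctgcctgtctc
All 5 CpGs of the Cd55b stretch, all 3 of Cd5 and all 3 of Cd82 lay inside the listed region. For contrast, the stretches of the member genes with the most and the fewest CpGs per window follow, with every CpG in capitals. No listed region lay over either of them. They are chr9:58555034-58555283 on the minus strand for Cd276 and chr5:43868559-43868808 on the plus strand for Cd38.
Cd276: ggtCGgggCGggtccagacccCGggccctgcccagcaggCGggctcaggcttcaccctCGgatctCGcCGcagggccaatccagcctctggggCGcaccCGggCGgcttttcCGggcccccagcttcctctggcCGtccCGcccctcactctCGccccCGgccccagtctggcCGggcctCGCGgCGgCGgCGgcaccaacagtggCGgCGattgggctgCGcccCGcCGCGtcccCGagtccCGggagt
Cd38: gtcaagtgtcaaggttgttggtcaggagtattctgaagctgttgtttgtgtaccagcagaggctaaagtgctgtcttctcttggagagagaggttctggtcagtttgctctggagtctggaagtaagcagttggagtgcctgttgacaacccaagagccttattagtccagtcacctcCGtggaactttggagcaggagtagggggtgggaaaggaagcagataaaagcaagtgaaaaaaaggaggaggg
The Cd276 stretch held 29 CpGs at a GC content of 77.6%, and the Cd38 stretch 1 CpG at 48.8%. Over the 25 matched genes, taking the window with the most CpGs for each gene, the median was 5 CpGs per 300 bases (CG counted on 1 strand, range 1 to 39). It was 4 over the 48 matched RefSeq Cd genes without a region and 15 over 17492 protein-coding genes. Windows with 15 or more CpGs belonged to 7 of the 25 genes (28.0%), against 50.01% of all protein-coding genes. Windows of this CpG-rich kind lay at Cd9, Cd81, Cd82, Cd274, Cd276, Cd2bp2 and Cd3eap.

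Across the 86 regions the mean level was 46.7% ± 2.67 in the mutant and 74.1% ± 0.371 in wild type (SD; n = 3 per group). The mutant replicates had means of 44.1%, 46.6% and 49.4%, and the wild-type replicates of 73.96%, 73.9% and 74.6%. Mutant replicate 1 was the lowest and mutant replicate 3 the highest, and both lay far below all wild-type replicates. The mean difference was -27.4 percentage points (mutant minus wild type, as throughout). These regions were listed because they differed in this contrast, so the difference describes them and is not a test. No mutant replicate reached the level of any wild-type replicate in 86 of 86 regions, and the same separation was seen in 94.3% of all candidate regions and 100.0% of all listed ones after rounding (35422 of 35439). limma called all 86 lower at an adjusted p under 0.05, as it did 93.5% of all candidate regions and every listed region.

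In size of loss the Cd regions lay near the whole list. Their median difference was -26.6 points (quartiles -30.3 and -22.8), against -26.1 points over all listed regions. Losses of 40 points or more were seen in 2 of the 86 regions (2.33%), against 8.55% of the list, and the largest was -43.4 points, at Cd22. Their median wild-type level was 78.4% against 80.3%, and 14 regions (16.3%) had a wild-type level below 60%, against 10.6% of all listed regions. The median region was 709 bp long with 10.5 CpGs, against 720 bp and 12 CpGs. A metilene q under 0.05 was reached by 19 of the 86 regions (22.1%), against 23.3% of the list. By the deposited distance, 76 regions (88.4%) overlapped the gene, 6 lay upstream and 4 downstream. None of these shares was tested.

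**Figure D1:**
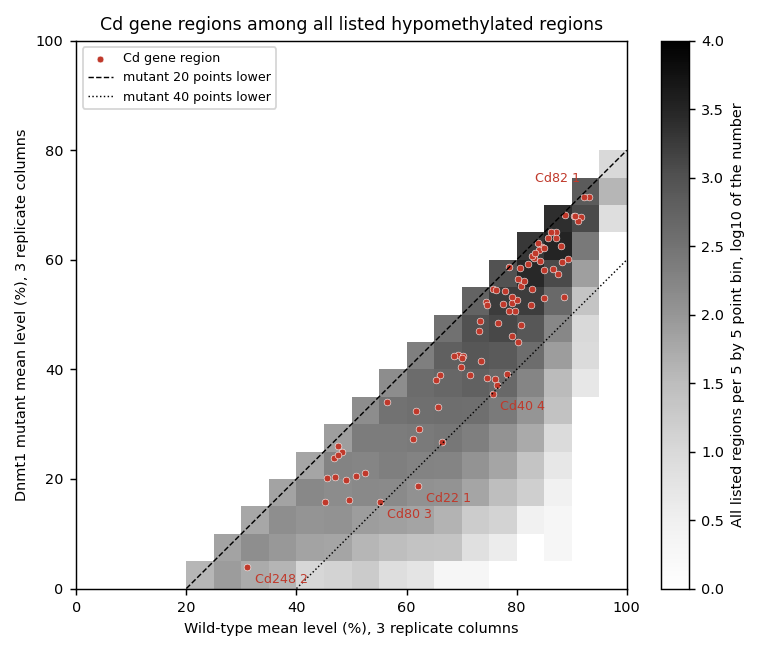
Mutant against wild-type mean level (%) of the 86 Cd gene regions (red points) over the number of all 35439 listed regions per bin (grey, log10 scale). The dashed line marks a mutant level 20 points lower, near which the list was limited, and 2 points lie beyond the dotted line at 40 points, Cd22 region 1 and Cd40 region 4.

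The share of methylation that remained was smaller where the wild type was less methylated. In the 14 regions with a wild-type level below 60%, the mutant kept a median of 41.8% of the wild-type level. In the 35 regions from 60% to 80% it kept 60.1%, and in the 37 regions above 80% it kept 72.5%. The corresponding medians over all listed regions were 39.3%, 60% and 71.5%. A minimum loss of 20 points sets part of this order, since a region at 31% cannot be listed while keeping most of its methylation.

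**Figure D2:**
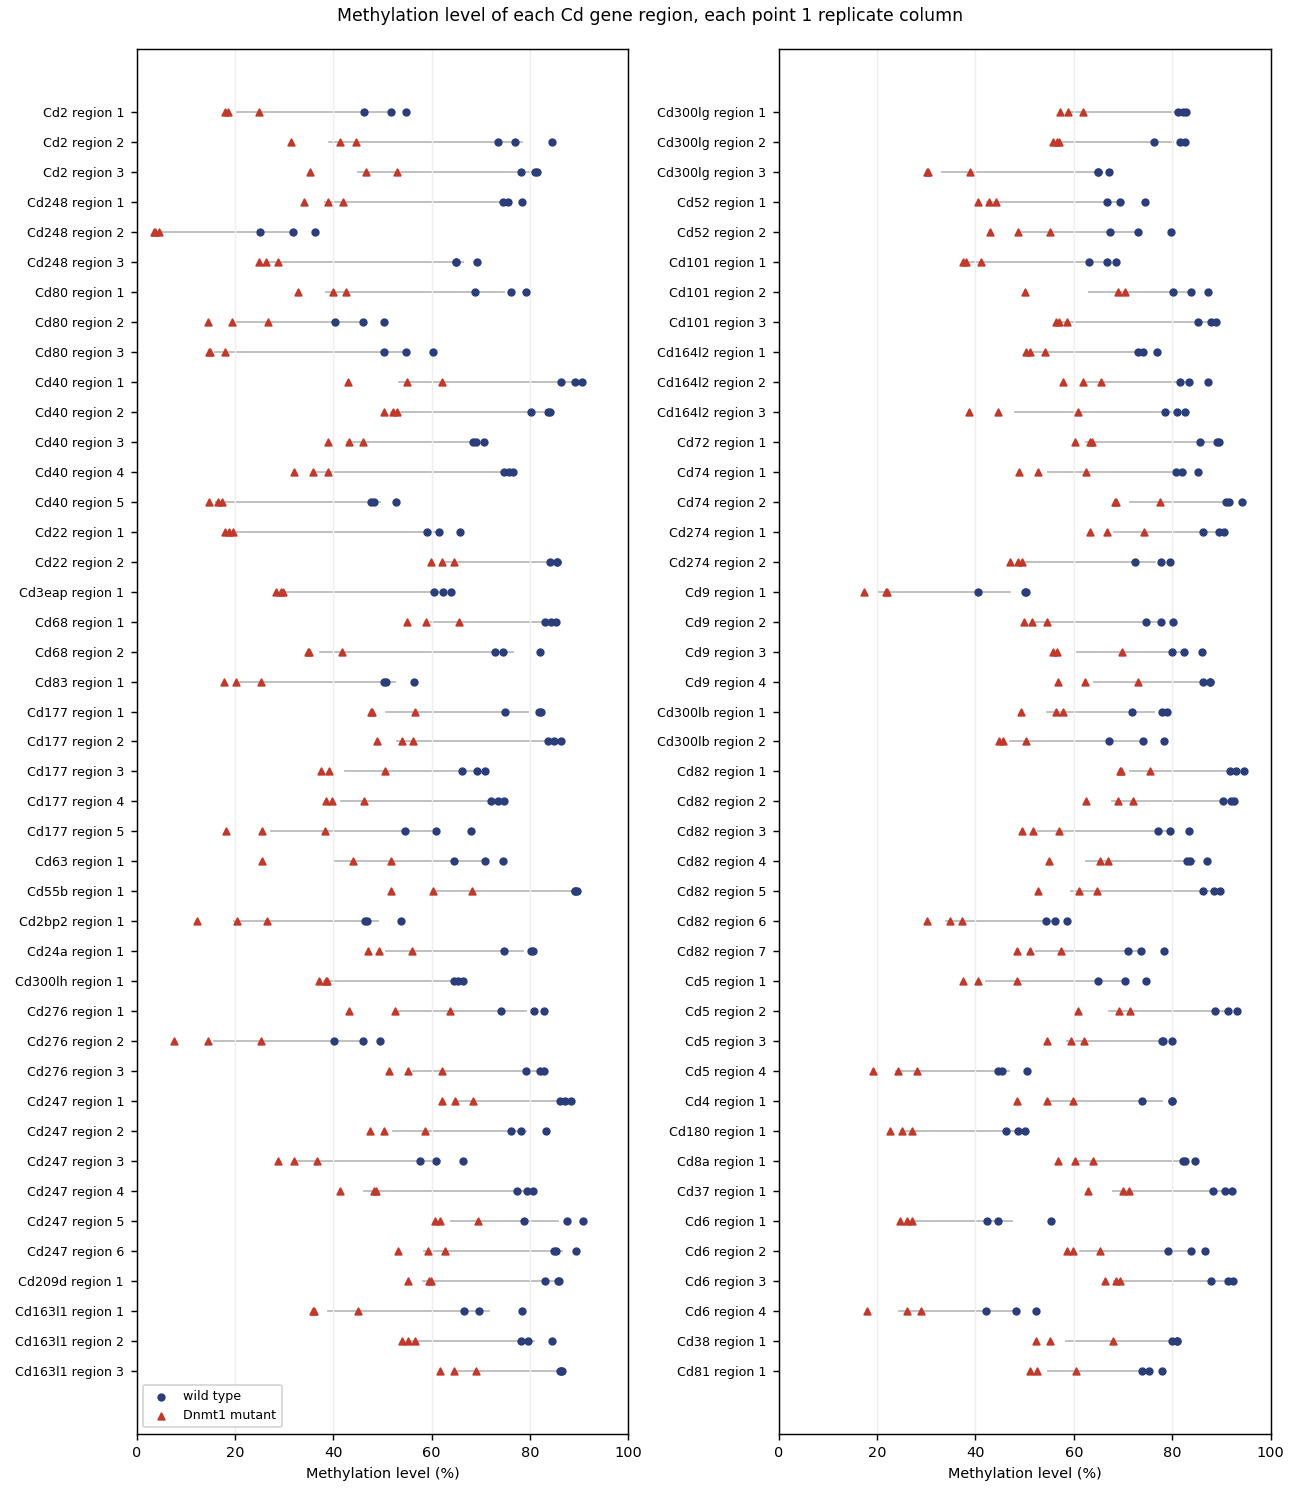
Methylation level (%) of each of the 86 regions in every replicate column, wild type as blue circles and mutant as red triangles, with a grey line between group means. Genes are ordered by their mean difference from Cd2 (top left) to Cd81 (bottom right), regions of a gene are numbered by position along the chromosome, and no row shows the groups overlapping.

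The genes were grouped in lists by role, and the listed genes of a role are all genes of its list, with or without a region. Shares of these genes rest on assigned regions, for which no share over all genes was computed. By the wider count, 42.2% of all protein-coding genes had a listed region. T and NK cell antigens held 19 of the regions, at 6 of 18 listed genes (Cd2, Cd4, Cd5, Cd6, Cd8a and Cd247), with a median difference of -23.7 points. Cd2 encodes an adhesion receptor of T and NK cells. Its region 2 (chr3:101279264-101279874, 10 CpGs) had levels of 31.4%, 44.6% and 41.3% in the mutant and 73.6%, 84.4% and 76.9% in wild type, the largest difference of this group at -39.2 points. Both genotypes spread by more than 10 points there without meeting. Its other regions differed by -30.4 and -35.3 points, so that over 3 regions the mean level was 34.9% ± 5.93 in the mutant and 69.8% ± 0.860 in wild type (SD, n = 3 per group). This was the largest mean difference per gene, at -34.9 points, with Cd248 next at a value that rounds to the same.

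Cd247, which encodes the zeta signalling chain of the T cell receptor complex, held 6 regions, of which the nearest to the RefSeq start lay 27619 bp past it. Their differences ran from -33.0 to -21.7 points. Region 5 (chr1:165858050-165858858) had the narrowest gap between the groups of all 86, at 9.20 points. Its mutant levels were 60.7%, 61.6% and 69.5% and its wild-type levels 90.7%, 78.7% and 87.5%, where wild-type replicate 2 was the low one. Cd247 also had the most candidate regions of any Cd gene, 22, of which 21 were called lower by limma.

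Cd5 and Cd6 are neighbouring genes of scavenger receptor type that temper T cell receptor signalling. Each held 4 regions on chromosome 19, with mean differences of -23.7 and -22.3 points. The Cd5 region over its start (region 4, chr19:10738741-10739301), whose sequence is printed above, had levels of 24.3%, 19.2% and 28.1% in the mutant and 44.6%, 45.4% and 50.4% in wild type. This start was thus less than fully methylated in wild-type progenitors, at 46.8% ± 3.18 (SD, n = 3), whereas Cd5 region 2 in the gene stood at 91.1% ± 2.19. Cd5 region 3 had the smallest loss of all members at -20.02 points. In Cd6 the outer regions 1 and 4 had wild-type levels of 47.5% and 47.6%, and the inner regions 2 and 3 of 83.3% and 90.5%. By the gene's span, region 4 lay over the start. Cd6 region 1 (chr19:10788138-10788883, 458 bp past the gene) had the largest wild-type SD of the set, 6.89 points, with 55.3%, 44.7% and 42.4%, beside mutant levels of 24.7%, 27.1% and 26.1%.

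The list assigned 1 region each to the coreceptor genes. By a wider count, of any listed region within 5 kb of the span, Cd4 had 2. At Cd8a a region of 34 CpGs began 134 bp past the start (chr6:71373561-71374768), with levels of 56.7%, 63.8% and 60.2% in the mutant and 82.1%, 82.6% and 84.7% in wild type. At Cd4 the assigned region had levels of 48.5%, 54.5% and 59.8% in the mutant and 80%, 80% and 73.8% in wild type. The groups were apart at both genes by more than the range within either of them.

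B cell antigens held 7 regions at 5 of 9 listed genes (Cd22, Cd37, Cd72, Cd74 and Cd180), with a median difference of -23.4 points. Cd22 encodes a sialic acid-binding coreceptor that restrains B cell receptor signalling. Its region 1 (chr7:30873441-30874160, 14 CpGs) showed the largest loss among the 86 regions. The mutant levels were 17.9%, 19.7% and 18.7%, and the wild-type levels 59.1%, 65.8% and 61.5%, so the mutant replicates agreed to within 2 points while the difference was -43.4 points. Only 12 bp from it, on the side away from the gene's start, lay a candidate region outside the list (chr7:30873140-30873429). That region had wild-type levels of 8.33%, 14.2% and 5.22% and mutant levels of 0.444%, 0% and 0%. Cd22 region 2, 935 bp past the start, differed by -22.8 points (62.2% ± 2.33 against 85.0% ± 0.834, SD, n = 3 each). The 5 candidate regions of Cd22 outside the list were lower by smaller amounts, with differences from -17.0 to -7.75 points.

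The other B cell genes ranged widely in the level that remained. Cd37, a tetraspanin of B cells, had the region with the most CpGs of the set, 39, which began 1015 bp upstream (chr7:45240033-45241060). Its levels were 62.9%, 70.1% and 71.2% in the mutant and 90.8%, 88.3% and 92.1% in wild type. The 2 regions of Cd74, the invariant chain of MHC class II, differed by -28.1 and -20.8 points. The first of them had levels of 48.9%, 62.4% and 52.7% in the mutant and 85.3%, 82.0% and 80.8% in wild type. The inhibitory receptor gene Cd72 had 62.4% ± 1.94 and 88.1% ± 2.09 (SD, n = 3 each). Cd180, a Toll-like receptor relative counted with B and myeloid genes alike, had a region 290 bp past its start with only 27.0%, 22.6% and 25% in the mutant and 48.6%, 50% and 46.2% in wild type.

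Myeloid and scavenger receptor genes held 20 regions at 8 of 30 listed genes, with a median difference of -26.5 points. Cd68, which encodes the macrophage lysosomal glycoprotein macrosialin, had the largest loss of this group in a region 144 bp past its start (chr11:69665532-69666026, 10 CpGs). Its levels were 35.1%, 41.7% and 34.9% in the mutant and 82.0%, 72.9% and 74.4% in wild type, a difference of -39.2 points. Region 1 of the same gene differed by -24.4 points. Cd177, a glycoprotein gene of neutrophils, held 5 regions with differences from -33.8 to -26.3 points and a mean level of 43% ± 3.19 against 73.6% ± 1.84 (SD, n = 3 each). The Cd177 region 64 bp past the start (chr7:24759591-24760247) spread widely, with 25.4%, 18.1% and 38.3% in the mutant and 60.8%, 54.6% and 68.0% in wild type.

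Genes of the Cd300 family, many of which encode paired receptors of myeloid cells, lie on chromosome 11, with Cd300lb and Cd300lh in a cluster and Cd300lg far from it. Cd300lg held 3 regions (differences -32.6 to -22.8 points), Cd300lb 2 (-26.3 and -21.7 points) and Cd300lh 1 (-27.3 points). At Cd300lb the region 178 bp past the start had levels of 50.3%, 44.8% and 45.7% in the mutant and 78.3%, 74.1% and 67.2% in wild type. Cd101 and Cd163l1 had 3 regions each, with mean differences of -26.0 and -26.4 points. Cd101 region 2 was uneven among mutant replicates, with 50.1%, 70.3% and 68.9% against 80.2%, 87.3% and 83.9% in the wild type. Without mutant replicate 1, its difference of -20.7 points shrank to -14.2 points. The lectin gene Cd209d had 1 region, 3290 bp past the gene, at 58.2% ± 2.59 against 84.9% ± 1.55 (SD, n = 3 each). Members of the Cd300, Cd209, Cd55 and Cd163 families are similar in sequence, and how reads shared by copies were handled was not stated in the sources used here.

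Costimulation and checkpoint genes, whose products pass signals between antigen-presenting cells and T cells, held 14 regions at 5 of 21 listed genes (Cd40, Cd80, Cd83, Cd274 and Cd276). Their median difference was -30.2 points, against -26.1 points over the whole list, a gap that was not tested. Cd40 encodes a TNF receptor family member on B cells and dendritic cells. Its 5 regions began upstream and ran through the gene, with wild-type means of 88.7%, 82.7%, 69.3%, 75.6% and 49.6% in 5′ to 3′ order and mutant means of 53.3%, 51.8%, 42.7%, 35.6% and 16.2%. Region 4 (chr2:165065512-165066697, 15 CpGs) had the second largest loss of the set at -40.05 points, with 32.0%, 35.8% and 39.0% in the mutant and 74.6%, 75.7% and 76.6% in wild type. Averaged over the gene, the level was 39.9% ± 0.889 against 73.2% ± 1.08 (SD, n = 3 each).

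Cd80, a ligand of CD28 and CTLA-4, held 3 short regions. Region 3 (chr16:38483973-38484401, 19 CpGs) had levels of 17.9%, 14.9% and 14.7% in the mutant and 60.2%, 50.3% and 54.8% in wild type, a difference of -39.3 points. In the authors' deposited table it had the smallest metilene q of the 86 regions, 9.5e-13. Cd83, a marker of mature dendritic cells, had 21.0% ± 3.81 against 52.5% ± 3.41 (SD, n = 3 each). The PD-L1 gene Cd274 held 2 regions that differed by -20.7 and -28.1 points. The B7 family gene Cd276, whose CpG-rich start is printed above, had its 3 regions at least 11047 bp past that start. Cd276 region 2 (chr9:58537023-58537404) had 7.67%, 25.2% and 14.6% in the mutant and 49.6%, 46.0% and 40.2% in wild type. The mutant replicates were far apart there but stayed below the wild type.

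**Figure D3:**
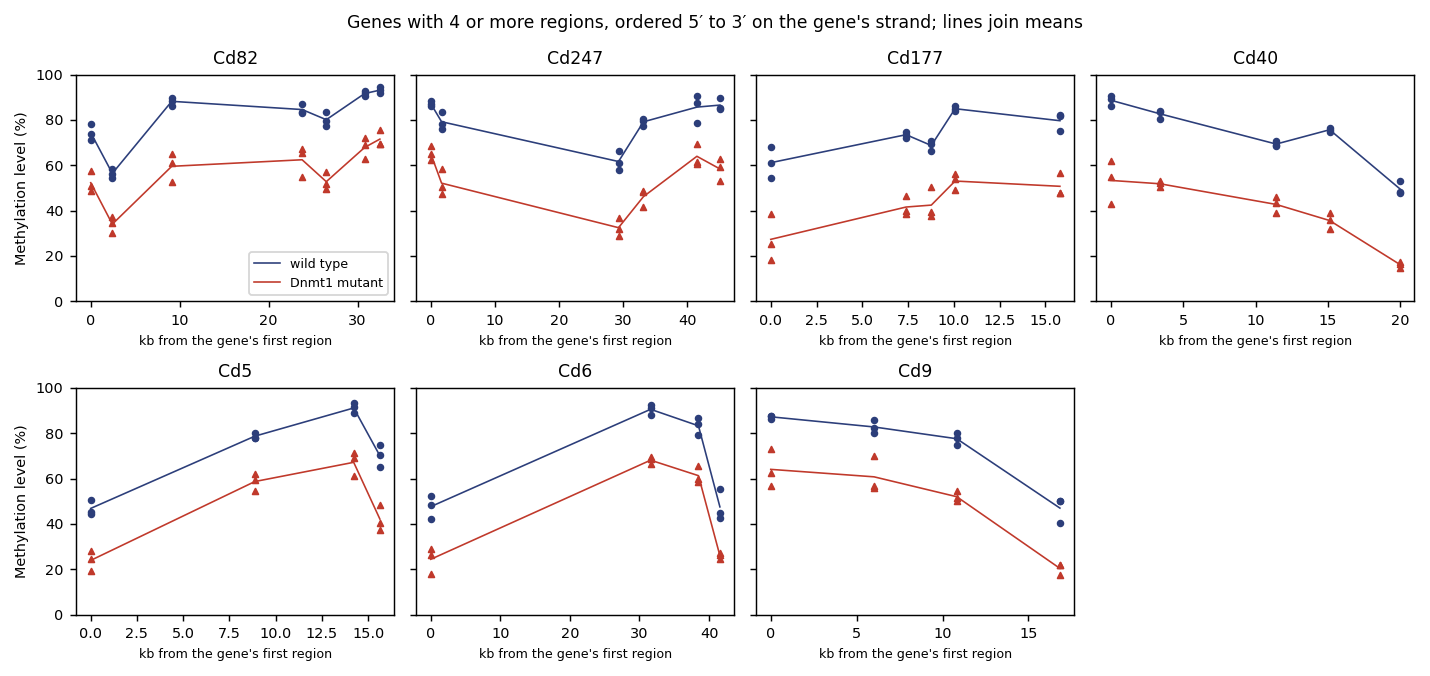
Level (%) in the 7 genes with 4 or more regions, by distance in kb from the gene's first region in 5′ to 3′ order, with points for replicate columns (wild type blue circles, mutant red triangles) and lines through the means. The mutant line lies below the wild-type line at every region, and the lines do not always turn together: from Cd40 region 3 to region 4 the wild-type mean is 69.3% and then 75.6%, the mutant mean 42.7% and then 35.6%.

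Stem cell, progenitor and endothelial antigens held 9 regions at 4 of 9 listed genes (Cd9, Cd24a, Cd38 and Cd248), with a median difference of -26.6 points. Cd248 encodes endosialin, a glycoprotein of stromal cells and pericytes. Its regions 2 and 3 lay 15 bp apart on chromosome 19 and differed strongly in level. Region 2 (chr19:5068410-5068561, 10 CpGs) had the lowest wild-type level of the 86, with 25.1%, 31.9% and 36.2%, and mutant levels of 3.56%, 3.78% and 4.56%. Region 3 (chr19:5068576-5069147, 21 CpGs) had 65.0%, 65.0% and 69.3% in the wild type and 24.95%, 26.4% and 28.8% in the mutant, a difference of -39.7 points. The mutant thus kept 12.8% of the wild-type level in the first and 40.2% in the second.

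Cd38 encodes an ectoenzyme that makes cyclic ADP-ribose and is used to subdivide progenitors. Its single region lay 40373 bp past the start, with 52.2%, 68.0% and 55.1% in the mutant and 80%, 80.9% and 81.0% in wild type. The region of Cd24a, the heat-stable antigen gene, lay 2058 bp upstream and differed by -27.8 points. Cd34, Cd48 and Cd93, which belong to the same list and mark stem cells and progenitors, had no candidate region within 5 kb.

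Tetraspanins, membrane proteins that organise other receptors, held 14 regions at 5 of 7 listed genes (Cd9, Cd37, Cd63, Cd81 and Cd82), with a median difference of -22.8 points. Cd82 had the most regions of any member, 7. Its region 1 (chr2:93419976-93420305) had the highest wild-type level of the set, with 93.0%, 91.7% and 94.7%, and 69.6%, 69.4% and 75.6% in the mutant. The region over a Cd82 start (region 7, chr2:93452107-93453199) had 48.4%, 51.0% and 57.4% in the mutant and 71.1%, 73.7% and 78.3% in wild type. At Cd63 (chr10:128911035-128911485, 17 CpGs) the mutant SD, 13.5 points, was the largest of the 86 regions, with 25.5%, 44.1% and 51.8%, against 64.5%, 74.4% and 70.9% in the wild type. Cd9 held 4 regions, of which region 1, the farthest from the start, had 20.4% ± 2.68 against 47.0% ± 5.62 (SD, n = 3 each). Cd81 had 1 region at -21.0 points.

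Adhesion molecules and complement regulators held 6 regions at 3 of 13 listed genes (Cd52, Cd55b and Cd164l2), with a median difference of -26.1 points. The region over the start of Cd55b (chr1:130422683-130423109, 15 CpGs), a relative of complement decay-accelerating factor, had 51.8%, 60.3% and 68.1% in the mutant and 89.2%, 89.6% and 89.1% in wild type. The wild-type replicates there lay within 1 point of each other, while the mutant replicates spread over more than 16 points. Cd164l2 region 3, 1568 bp past the gene, had 38.6%, 60.9% and 44.7% against 80.9%, 82.6% and 78.6%, the largest loss of this group at -32.6 points. At Cd52, a small GPI-anchored glycoprotein gene of lymphocytes, the differences were -27.7 and -24.5 points.

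Of the 3 listed genes of intracellular partners, Cd2bp2 and Cd3eap had 1 region each, close to a CpG-rich start, and Cd2ap had no candidate region. Cd3eap, which encodes an RNA polymerase I subunit, had a region 599 bp past its start (chr7:19358307-19358884). Its levels were 29.4%, 29.7% and 28.3% in the mutant and 62.2%, 60.4% and 63.9% in wild type, with the mutant replicates within 2 points. Cd2bp2, which encodes a splicing factor that binds the CD2 tail, had a region at -422 bp, upstream of its start (chr7:127196499-127196876). Its levels were 20.4%, 12.3% and 26.6% in the mutant and 53.8%, 46.4% and 46.9% in wild type.

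By position, 11 of the 60 regions at genes with a RefSeq start lay over it or within 1 kb of it. The 3 over a start had a median wild-type level of 74.4%, the 7 within 1 kb downstream 73.2%, and the 1 upstream 49.0%. The 47 further downstream had a median of 80.1%. Median differences were -22.9 points over a start, -26.3 points within 1 kb downstream and -26.1 points further downstream. These classes leave out the 26 regions at unmatched genes, whose median difference was -27.8 points. Some of these lay over or near the start of the gene's span, namely Cd2 region 3, Cd6 region 4, Cd40 region 2, Cd52 region 2, Cd83 and Cd248 regions 2 and 3. Their differences ran from -39.7 to -23.2 points, so the medians near a start hold for matched genes only. Exons and introns could not be assigned, because the gene tables used here give only spans and starts. Reading outward from the distance limit, the farthest region inside was Cd40 region 1 at -4346 bp (upstream) (53.3% against 88.7%) and the nearest outside was a Cd9 region at 6118 bp (54.9% against 76.4%). A further 9 listed regions assigned to Cd genes lay beyond the limit.

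Mutant replicates differed among themselves more than wild-type replicates did. The median SD over the 86 regions was 4.13 points in the mutant and 2.50 points in wild type, and the mutant SD was the larger in 59 regions (68.6%, against 70.0% of all listed regions). Mutant replicate 1 was the lowest in 49 regions, replicate 2 in 26 and replicate 3 in 11. The corresponding shares of the whole list were 56.4%, 29.0% and 14.6%, against 57.0%, 30.2% and 12.8% here.

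**Figure D4:**
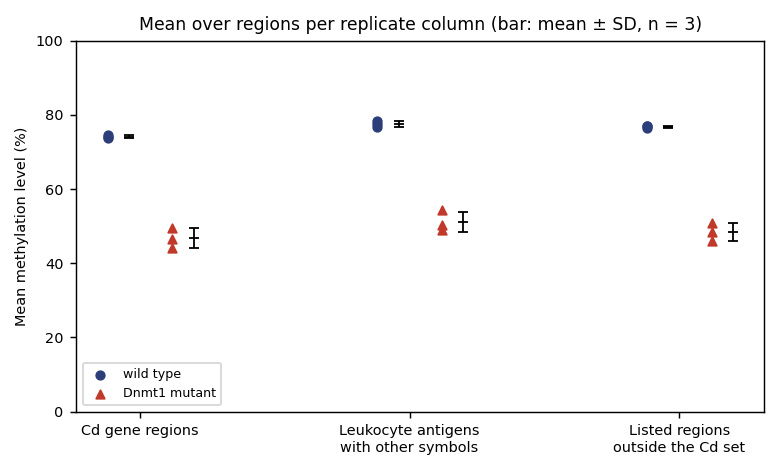
Mean methylation level (%) over regions in each replicate column for the Cd gene regions, the regions of leukocyte antigens with other symbols and all listed regions outside the Cd set, with black bars for mean ± SD (n = 3). Mutant means of 44.1% to 49.4% in the Cd regions lie beside 46.1% to 50.8% in the rest of the list, and wild-type means of 73.9% to 74.6% beside 76.4% to 77.1%.

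Leukocyte antigens whose genes carry other symbols (such as Thy1 for CD90 or Itgax for CD11c) gave a comparison set of 58 regions at 32 of 64 genes. Their mean level was 51.2% ± 2.69 in the mutant and 77.6% ± 0.911 in wild type (SD; n = 3 per group), with a median difference of -23.8 points. The largest losses were at Thy1 (8.85% ± 1.75 against 62.4% ± 12.3), Lamp1 (17.9% ± 1.29 against 59.8% ± 5.83), Il6ra (51.9% ± 1.71 against 92.0% ± 0.863) and Itgax (41.9% ± 3.78 against 80.5% ± 3.001; SD, n = 3 each). The loss at Thy1, -53.5 points, was larger than any among the Cd regions. Differences between these sets were not tested.

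Cd genes carried listed regions about as often as other genes. Of 100 protein-coding RefSeq Cd genes, 63 had a candidate region in their span or within 5 kb of it and 37 had none. By this wider count 42 genes had a listed region, which is 42% against 42.2% of all 21900 protein-coding genes, and for candidate regions the shares were 63% and 64.8%. The median gene span was 14730 bp for the Cd genes and 17146 bp for all, and the shares were not tested. Some member genes had more listed regions by the wider count than were assigned to them, such as Cd300lg with 7 against 3. Cd164l2 had fewer, 2 against 3, because 1 assigned region lay more than 5 kb from its RefSeq span. For 7 of the 42 (Cd7, Cd79b, Cd151, Cd160, Cd300e, Cd300lf and Cd300ld3) the deposited list assigned the regions to another gene. At Cd300e and Cd300ld3 this was the member region given above under the symbol Cd300lh. The 37 without any candidate region included the T cell receptor subunit gene Cd3e, the scavenger receptor gene Cd36 and the adhesion receptor gene Cd44. Absence from the table says only that no region was tabulated there. Of 259 candidate regions at Cd genes, 107 (41.3%) were listed, against 33.1% of all candidate regions. The latter were not limited to regions near a gene, so these shares differ in scope, and the gap was not tested. limma called 236 of the 259 lower (91.1%), against 93.5% of all candidate regions. It called 0 higher, against 0.0485% of all candidate regions, and there were 0 also at an unadjusted p under 0.05 and with limma on a logit scale.

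The 152 candidate regions at Cd genes outside the list had a median difference of -14.1 points, against -13.5 points over all candidate regions outside the hypomethylated list. limma called 129 of the 152 lower, a smaller share than the 90.2% of all candidate regions outside the list. This gap was not tested. The deposited name calls the candidate regions differentially methylated, so they may themselves have been chosen for a difference in this contrast. A candidate region at Cd151 (chr7:141467239-141467395) nevertheless stood at 0% in every replicate column. Just outside the list in size were regions at Cd7 (-19.9 points) and Cd72 (-19.9 points), and regions at Cd9 and Cd82 differed by -20.2 and -20.04 points in the replicate columns yet were not listed. The last 2 were chosen for mention after their values were seen.

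A set of 14 unlisted candidate regions was nearly unmethylated in the wild type, with a mean below 10%, and limma called 1 of them lower, the Cd22 region given above. The others lay at Cd9, Cd37, Cd80, Cd81, Cd151, Cd164 and Cd247. Of the 138 with a wild-type mean of 10% or more, 128 were called lower. At Cd81 a region near its CpG-rich start (chr7:143052905-143052996) had 4.22%, 0% and 1.11% in the mutant and 0.556%, 0% and 0% in wild type, and replicates overlapped. This region and 1 each at Cd80, Cd164 and Cd247 were the 4 in which the mutant mean was the higher, by 1.59 to 2.92 points, and limma called none of them. The depth behind these levels is unknown, so a level of 0% carries no lower limit of detection.

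**Figure D5:**
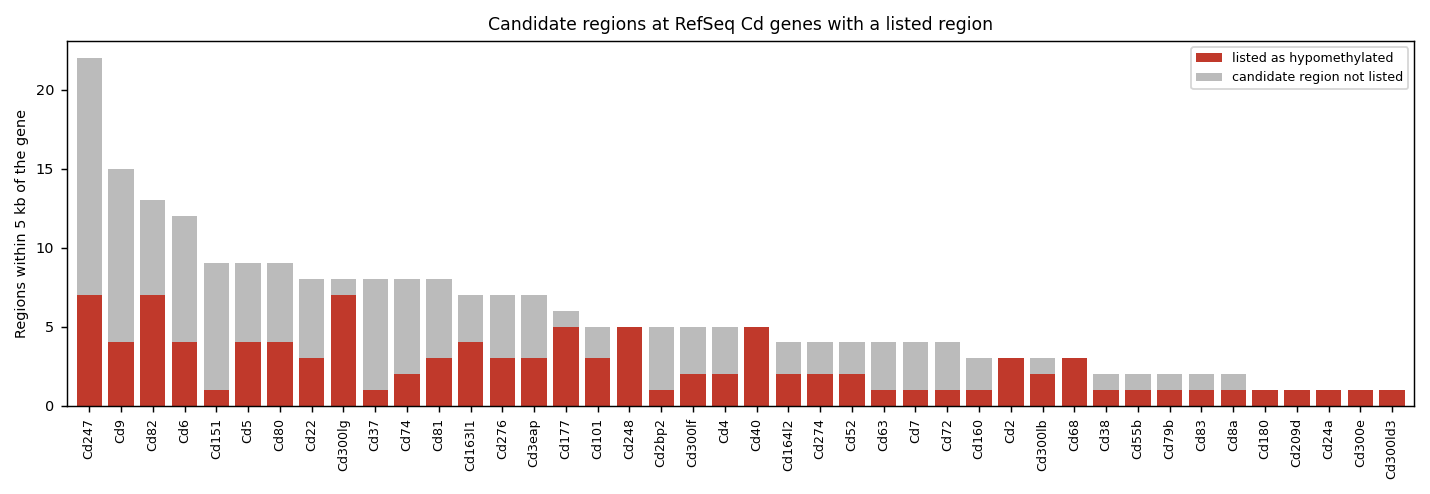
Number of candidate regions in or within 5 kb of each of the 42 RefSeq Cd genes with a listed region, split into regions listed as hypomethylated (red) and not listed (grey). Cd247 has the most candidate regions, 22, and Cd2, Cd40, Cd68 and Cd248 are among the genes whose candidate regions were all listed.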

How the data were processed

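Methylation of lin- bone marrow progenitors was measured in 12 libraries, 6 per genotype. The authors deposited the methylation level of each candidate region as a fraction in 6 columns, and a list of hypomethylated regions called with metilene, per its name, on the build mm10 named by the submitters' processing notes. How reads were aligned, and whether both kits were merged in a column, was not given in the sources used here. In addition, the deposited list gives mean levels as a fraction, their difference as a score, the number of CpGs, a metilene q-value and an adjusted p-value of a further test. No read counts accompany the levels, so depth cannot be stated and counting error has no interval.

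Levels were multiplied to percent. In 35439 of 35439 listed regions every level times 1 less than the number of CpGs was a whole number of hundredths (tolerance 1e-04), so a level is an unweighted mean over CpGs that leaves 1 of the counted CpGs out. Coordinates are as deposited. Where a region's end fell in a RefSeq window of GRCm38.p6, a CpG stood 2 bases past the start in 1573 of 1573 cases and 1 base past the end in 1531 of 1531. Distances to a gene are as deposited, to the gene's span, which can differ from the RefSeq span, and are negative upstream.

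limma 3.58.1 (R 4.3.3) tested each candidate region on percent, with Benjamini-Hochberg adjustment over all 107115 and a threshold of 0.05. It was also run on simulated data in which few regions were changed, whereas 93.5% of the candidate regions were called lower here. That run therefore does not show how the test behaves at such a share. The closest pair of columns differed by a median of 2.44 points, so no column was a copy of another. Members, gene lists and tests were chosen with earlier results of these data known. Named regions were the largest loss in each of 9 role lists, those near a start, the extremes of level, spread, CpG number and distance, and genes with 3 or more regions. The rule's 1000 bp to a gene took 79 regions, because the distance is to the span. Regions within 1 kb of a matched RefSeq start are given instead, and all regions are plotted. Python 3.11.15, numpy 2.4.6, pandas 2.3.3 and matplotlib 3.10.9 were used. Values of 1 gene outside the set are not reported here.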

Additional observations from a re-analysis of the deposited data

How the results depend on the processing

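The mean difference over the 86 regions, -27.4 points, stayed between -28.85 and -26.1 points under every alternative tried: weighting by CpGs, the median, the authors' deposited means, 1 value per gene, other distance limits, a metilene q under 0.05 and leaving out each replicate (-28.8 to -26.1 points). With the replicate block it was -27.4 points, as the mean cannot change. Limiting the set to a metilene q under 0.05 left 19 of the 86 regions. limma with the replicate block called 99903 candidate regions lower and 70 higher, against 100125 and 52 without it. Same-numbered replicates of the genotypes shared little, with correlations of their deviations of 0.0372, 0.00490 and 0.04998. Pairs of unlike number ran from -0.0507 to 0.0117. Each mutant replicate was thus closest to the wild-type replicate of its own number, though weakly. The numbers were not taken to pair samples. Leaving out 1 replicate gave 30 to 63 candidate regions called higher, the lowest without wild-type replicate 1. Over 602 alternative values of single regions 0 changed direction. None could, because the replicates of the groups did not meet in any region and the list was limited to deposited losses near 20 points or more. Only 1 value moved by more than the larger SD of its groups: Cd3eap was at -29.7 points by the authors' means. Leaving out 1 of 3 replicates moves a group mean by less than its SD, so those values could not move by this measure. No coverage minimum could be tried, because the levels come without read counts.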
